A study of Mus musculus with 24 samples.

Results

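Wild-type mouse ears were compared between 1 month and day 5, with time counted from the first tamoxifen injection. The comparison used the 12 libraries of the study that carry the wild-type label at either time, of 24 libraries in all, with 6 at day 5 and 6 at 1 month. RNA came from the whole ear of C57BL/6 mice, was selected for polyA tails and was read from a single end on a HiSeq4000. The other 12 libraries, again 6 at each time, were labelled Card14 E138A, a knock-in of an activated form of Card14, the scaffold protein that relays signals to NF-kB in keratinocytes. They served in the common fit and as the comparison at the end. All mice received tamoxifen by intraperitoneal injection once a day on consecutive days, which makes the Cre fused to an oestrogen receptor (CreERT2) active in animals that carry it. Whether the wild-type mice carried this Cre, and the age and sex of the mice, are not stated in the labels. No tamoxifen-free group and no untreated age control was analysed here, so recovery from the injections, ageing and any handling that differed between the times cannot be told apart. The labels do not say that libraries came from separate animals, so p-values cover the spread among libraries only, which may be technical.

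The ear is a thin sandwich of 2 skin faces around a plate of elastic cartilage, with striated muscle at its base, fat, glands and blood vessels. Its hair follicles cycle through growth (anagen), regression (catagen) and rest (telogen), and the keratins and keratin-associated proteins of the shaft and of its inner root sheath are made during growth only. Follicle and skin melanocytes make pigment with tyrosinase and its relatives. A whole-ear library mixes all of these, so that more cells of a type and more RNA per cell cannot be told apart in any result given here.

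The defining markers of the labelled tissue were read in every wild-type library: the 12 basal keratinocyte genes summed to 15080–20400 CPM (counts scaled to 1000000 per library) at day 5 and 13240–19980 CPM at 1 month, the 21 cartilage genes tested to 1379–1728 and 1240–2696 CPM. Library totals were 15661515 to 16998900 counts at day 5 and 19255028 to 23904976 at 1 month. The 1 month libraries were the more variable, with a median SD of log2 CPM across genes of 0.355 against 0.153 at day 5. The correlation of a library's gene deviations with gene GC content lay between -0.19 and 0.03 at day 5 and was -0.36, 0.55, 0.14, 0.24, 0.28 and -0.12 in 1 month replicates 1 to 6. On this measure replicate 6 lay within the day 5 range, replicate 1 below it and the other 4 above it. The correlation with transcript length was 0.18 to 0.28 at day 5 and 0.25, -0.20, -0.09, -0.10, -0.19 and 0.14 in 1 month replicates 1 to 6. There replicate 1 lay within the day 5 range and the others below it. The 4 Y-linked genes tested were read in every wild-type library. They summed to 201.9–244.4 CPM at day 5 and to 266.6, 42.37, 143.5, 101.9, 109.5 and 201.9 CPM in 1 month replicates 1 to 6. Replicates 2 and 5 lay farthest from the day 5 libraries on the first principal component, which held 45.4% of the variance of the wild-type libraries. Of the 117 named genes called, 31 lost the call without at least 1 single library and 39 without replicates 2 and 5 together. Card14 itself was read at 34.6, 48.5 and 54.2 CPM (lowest, median and highest library) at day 5 and 32.9, 37.5 and 49.9 CPM at 1 month. The groups overlapped, and its log2 fold change of -0.17 ± 0.19 (standard error, SE) did not pass the test (adjusted p = 0.58).

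**Figure D1:**
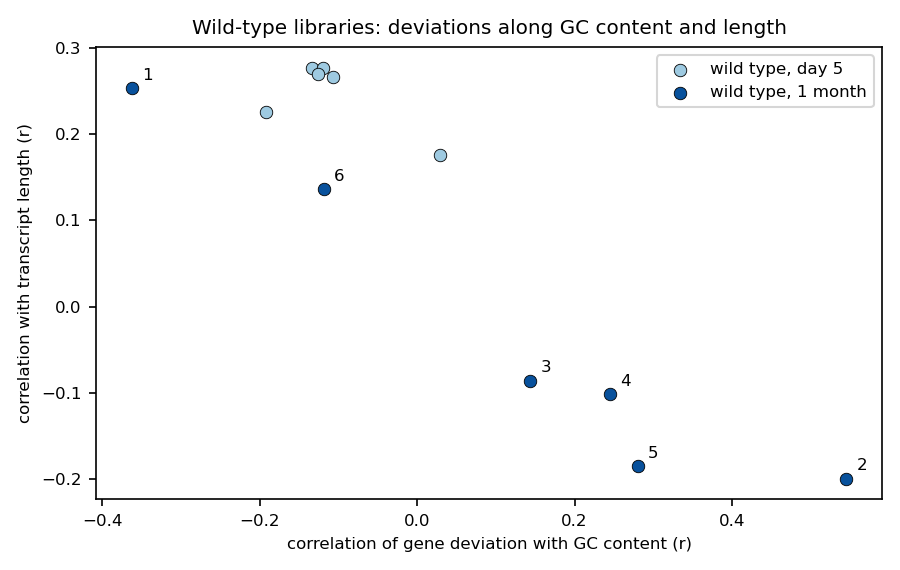
Correlation (r) of each wild-type library's gene deviations with GC content (x axis) and with transcript length (y axis). Each point is 1 library, light for day 5 and dark for 1 month with its replicate number. The day 5 libraries lie together, and at 1 month the libraries spread from replicate 1 (-0.36 for GC content) to replicate 2 (0.55).

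Of 17287 genes tested, 1086 (6.28%) were higher and 486 (2.81%) lower at 1 month at an adjusted p below 0.05, 1572 (9.09%) in all. The median log2 fold change over all genes tested was -0.03. Among the 15075 protein-coding genes, 992 (6.58%) were higher and 360 (2.39%) lower. Of the changes, 515 rises and 155 falls reached 1 on the log2 scale, a doubling or halving. The share of calls that were rises, 69.1%, depended on the setting. It was 79.6% with RLE factors, 81.4% with library totals alone and 80.4% without a filter. It was 48.5% with a GC covariate and 44.6% with limma voom and sample quality weights (weighted limma voom), where more calls were falls than rises. Gene groups are therefore described by their own counts beside these shares of all genes. With a gap between groups required in place of a test, 502 genes (2.9%) had all 1 month libraries above all day 5 libraries and 374 (2.16%) had all of them below.

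Keratin genes of the inner root sheath of the hair follicle were among the largest rises in wild-type ears. Each keratin gene named in the next paragraph belongs to that sheath, and values for single shaft keratins are not given. Over all 24 libraries, mutants included, 19 keratins of the shaft and inner root sheath passed the filter. Of these, 18 rose and none fell, with a median log2 fold change of 4.29, beside -0.03 over all genes. Their summed level was 4.56, 8.28 and 13.5 CPM (lowest, median and highest library) at day 5 and 20.5, 88.3 and 248 CPM at 1 month. All 1 month libraries lay above all day 5 libraries, but they differed among themselves by about an order of magnitude: replicates 1 to 6 stood at 248, 151, 20.5, 70.95, 106 and 57.2 CPM. Replicate 1, which lay nearest to day 5 in muscle genes, was the highest here.

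Krt71, a type II keratin of the inner root sheath (chr15:101733949-101743109, GRCm38), stood at 0.0617, 1.07 and 3.03 CPM at day 5 and 3.79, 26.1 and 87.99 CPM at 1 month, with no overlap and a log2 fold change of 4.73 ± 0.77 (adjusted p = 4.79e-04). Krt25, a type I keratin of the same sheath, went from 0.185–2.098 to 4.16–54.5 CPM, a log2 fold change of 4.504 ± 0.70 (adjusted p = 2.48e-04). The neighbouring type I sheath keratin genes Krt27 and Krt28 rose by 4.29 ± 0.62 and 3.11 ± 0.45, and Krt73 by 3.77 ± 0.51 on the log2 scale. In each of these 5 genes every 1 month library was above every day 5 library, and replicate 3 was the lowest and replicate 1 the highest at 1 month. Krt72 had 2 reads over the 6 day 5 libraries and 384 over the 1 month libraries, a ratio of 141.3 with a 95% counting interval of 38.9 to 1171. When only the 12 wild-type libraries were fitted, 8 of the 18 keratin calls passed. The main filter used the mutant libraries too, and the summed keratins stood at 389–2665 CPM in E138A ears at 1 month. Members may thus have entered the list of 19 through the mutant libraries. The filter was applied anew in the wild-type fit, and any member it removed had no test there. The count of 8 alone does not tell failed calls from genes not tested. Krt71, Krt25, Krt27, Krt28, Krt72 and Krt73 were tested and called in that fit. Leaving out single libraries gave 17 or 18 calls.

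Among 27 other shaft and sheath proteins, 16 rose and 1, the cross-linking enzyme Tgm3, fell, with a median of 3.39. Their summed level did not separate the times. It was 266.3, 299.6 and 308.5 CPM (lowest, median and highest library) at day 5 and 235.2, 294.2 and 509.8 CPM at 1 month. In 3 of the 27 all 1 month libraries lay above all day 5 libraries, and in 1 all lay below. Tgm3 is named here after its values were seen: its mean was 106 ± 12.03 CPM at day 5 and 67.5 ± 8.75 CPM at 1 month (SD, n = 6), which is -0.64 ± 0.19 on the log2 scale (adjusted p = 0.037). Padi3, which converts arginines of sheath proteins to citrulline, rose from 0.0617–0.232 to 0.632–5.63 CPM (log2 fold change 4.23 ± 0.58, adjusted p = 6.04e-05). The keratin-associated protein genes Krtap7-1, Krtap8-1 and Krtap11-1, which encode matrix proteins between the keratin filaments, rose by 4.83 ± 0.82, 5.13 ± 0.90 and 3.56 ± 0.74. All 3 were nearly silent at day 5, at no more than 0.347, 0.173 and 0.350 CPM, and overlapped with 1 month through replicate 3. The desmosomal cadherin Dsg4 had 3 reads at day 5 and 106 at 1 month, a ratio of 26.01 (95% counting interval 8.66 to 128.1). The count of rises in this list was 8 without replicates 2 and 5, and 5 with only the wild-type libraries fitted. Krtap7-1, Krtap8-1, Krtap11-1 and Dsg4 did not pass the filter of that last fit and had no test there. They passed the main filter with the mutant libraries included, at E138A 1 month means of 24.2, 20.1, 17.1 and 5.64 CPM. Their wild-type 1 month means were 2.42, 2.30, 1.23 and 0.72 CPM.

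The lists of follicle growth regulators and resting follicles had 1 or 2 calls each by edgeR, beside 9.09% of all genes called. Of 20 genes of the hair matrix, 1 rose and 1 fell, with a median of -0.08. The riser was Bambi, a decoy receptor of TGF-beta and BMP signals (0.80 ± 0.24, adjusted p = 0.037). The faller was the ligand Wnt5a (-0.44 ± 0.12, adjusted p = 0.026). Among 19 dermal papilla genes 1 rose, the secreted Wnt inhibitor Wif1, from 296–329 to 299–681 CPM (0.63 ± 0.20, adjusted p = 0.046). Among 15 genes of the bulge and the resting phase 1 fell, the keratin Krt24, from 324–424 to 169–255 CPM (-0.86 ± 0.24, adjusted p = 0.026). These 4 calls lay near the threshold and did not hold when single libraries were left out. Bambi and Wif1 lost theirs without any 1 of 10 libraries, Wnt5a without any 1 of 8 and Krt24 without any 1 of 6. The adjusted p was then up to 0.12, 0.14, 0.073 and 0.068. All 4 calls were also lost without replicates 2 and 5. DESeq2 gave the same counts as edgeR in these 3 lists, while weighted limma voom called 5 lower and 3 higher in the hair matrix list, 6 lower and 2 higher in the dermal papilla list, and 8 lower in the bulge list.

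**Figure D2:**
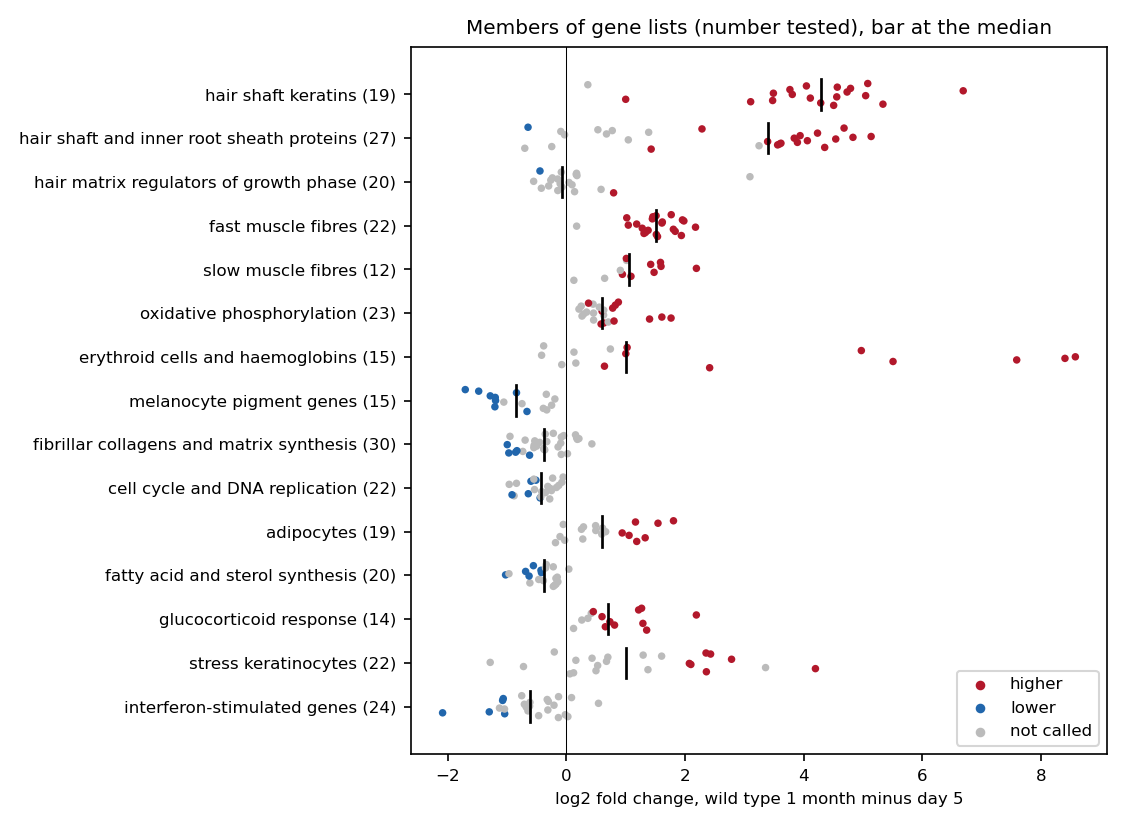
Log2 fold change (x axis, wild type 1 month minus day 5) of every tested member of 15 gene lists, 1 point a gene, coloured by call, with a bar at the list median. The list named hair shaft keratins, which includes those of the inner root sheath, lies far to the right with a median of 4.29. The regulators of the hair matrix lie around -0.08.

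Striated muscle genes rose together. Of 22 genes of fast fibres, 21 rose, none fell, and the median was 1.51. Of 12 genes of slow fibres 8 rose and none fell (median 1.05). The fast fibre genes summed to 7008, 7612 and 9903 CPM at day 5, and to 9113, 17040, 22130, 17870, 33430 and 20540 CPM in 1 month replicates 1 to 6. Replicate 1 lay within the day 5 range and replicate 5 was the highest, so that the rise was seen in 5 of 6 libraries. Without replicate 5 the number of fast fibre genes called was 11, and without replicates 2 and 5 it was 5. The count for slow fibres was 6 to 10 without single libraries and 2 without replicates 2 and 5, where the calls of Myl3 and Tnnc1 were lost.

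Tnnt3, the fast fibre troponin T (chr7:142498836-142516009), went from 328, 374 and 455 CPM at day 5 to 545, 1215 and 2369 CPM at 1 month without overlap (log2 fold change 1.77 ± 0.37, adjusted p = 0.004). The myosin light chain Myl1 rose by 1.61 ± 0.35 (adjusted p = 0.0056), again without overlap. Eno3, the muscle enolase, rose by 1.804 ± 0.40, the Z-disc protein Myoz1 by 1.98 ± 0.45 and the fast myosin binding protein Mybpc2 by 2.18 ± 0.50 (adjusted p = 0.0065, 0.0076 and 0.0077). In those 3 genes the groups overlapped through replicate 1, the lowest of the 1 month libraries. Among slow fibre genes the light chain Myl2 rose by 2.19 ± 0.48, the light chain Myl3 by 1.596 ± 0.36, the troponin C Tnnc1 by 1.59 ± 0.35 and the Z-disc protein Myoz2 by 1.42 ± 0.29. The genes of precursors and of developing muscle were split: Myod1, the myogenic transcription factor, rose by 1.602 ± 0.41 (adjusted p = 0.015), while the perinatal myosin Myh8 fell from 3.45–5.79 to 1.45–2.63 CPM (-1.15 ± 0.21, adjusted p = 0.0017). The Myod1 call was lost without replicates 2 and 5 together. Without replicate 5 it was lost at an adjusted p of 0.055.

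Nuclear genes of oxidative phosphorylation rose in part, with 11 of 23 higher, none lower and a median of 0.60. They summed to 3315–3906 CPM at day 5 and to 3425, 5240, 5496, 5252, 6962 and 4735 CPM in 1 month replicates 1 to 6. Replicate 1 lay within the day 5 range, as it did in the correlation with transcript length. The part of transcript length in these rises was not tested. Uqcrfs1, the Rieske protein of complex III, rose by 0.88 ± 0.17 without overlap (adjusted p = 0.0026). The complex I subunit Ndufb5 rose by 0.60 ± 0.12 and the complex IV subunit Cox5a by 0.80 ± 0.18. The count depended on the libraries: it was 21 without 1 month replicate 1, 5 without replicate 5, 7 without day 5 replicate 2, 4 or 6, and 4 without 1 month replicates 2 and 5. It was 18 with DESeq2, 17 with library totals alone, 21 with weighted limma voom and 7 with a replicate block. Of 15 genes of the mitochondrial genome 0 were called by edgeR (1 at an unadjusted p below 0.05, 0 by DESeq2, 2 by weighted limma voom), with a median of -0.04. The cytoplasmic ribosomal protein genes had 6 of 26 higher (median 0.42), a count that ranged from 2 (without 1 month replicate 3 or 5) to 11 (without replicate 1), with 3 without day 5 replicate 1, 2, 4 or 6 or without 1 month replicate 4. It was 2 without replicates 2 and 5, 3 with a replicate block, 10 with DESeq2, 12 with only the wild-type libraries fitted and 23 with weighted limma voom.

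Adult globins made up the 3 largest rises among protein-coding genes called with a mean of at least 5 CPM in either group. Upstream sequences of 3 of the 4 genes are shown first, since their counts moved together; they are 150 bases before the RefSeq start (GRCm38.p6), 5′ to 3′ on the strand of the gene, with the letters CCAAT and CACCC, searched on both strands, in capitals.
Hbb-bs (chr7:103827929-103828078, minus strand): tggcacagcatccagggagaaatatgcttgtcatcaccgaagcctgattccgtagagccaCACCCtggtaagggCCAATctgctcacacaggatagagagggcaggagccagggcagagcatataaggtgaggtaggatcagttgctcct
Hbb-bt (chr7:103813924-103814073, minus strand): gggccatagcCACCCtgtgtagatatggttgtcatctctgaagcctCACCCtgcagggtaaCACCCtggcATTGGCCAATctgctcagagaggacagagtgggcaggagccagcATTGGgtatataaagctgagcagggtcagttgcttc
Hba-a1 (chr11:32283522-32283671, plus strand): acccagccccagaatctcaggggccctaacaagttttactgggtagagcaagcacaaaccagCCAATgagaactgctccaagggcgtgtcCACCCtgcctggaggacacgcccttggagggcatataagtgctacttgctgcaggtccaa
In the 250 bases before the start, both words were present in all 4 genes, but both are frequent: CCAAT was found in 34.3% and CACCC in 51.4% of 27025 upstream windows of that length. The window of Hba-a2 matched that of Hba-a1 in 100% of aligned bases, and those of Hbb-bs and Hbb-bt matched in 71.1%. The alpha-globin pair is nearly identical in transcript as well, so reads could be split between its members by the estimation of counts, and the sum of all 4 globins is the safer measure. It was 4.00 to 6.31 CPM in the day 5 libraries and 233.9, 434.3, 730.4, 502.6, 779.3 and 778.9 CPM in 1 month replicates 1 to 6.

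Every 1 month library thus exceeded every day 5 library in this sum by more than an order of magnitude. Hbb-bs, an adult beta-globin, went from 0.261, 0.634 and 1.62 to 106, 284 and 344 CPM (log2 fold change 8.400 ± 0.85, adjusted p = 7.93e-07). Hbb-bt rose by 8.57 ± 0.76 (adjusted p = 8.99e-08), Hba-a2 by 7.59 ± 0.93 and Hba-a1 by 5.504 ± 0.49. Alas2, the enzyme that starts haem synthesis in red cell precursors, rose from 1.18–1.85 to 4.07–11.4 CPM (2.42 ± 0.31, adjusted p = 2.46e-05). Of the 15 erythroid genes tested, 9 rose and none fell (median 1.003), and the number of rises was 9 whichever single library was left out and 7 without replicates 2 and 5. The platelet and megakaryocyte genes, which also come with blood, had 0 of 7 called by edgeR (3 lower at an unadjusted p below 0.05, 0 by DESeq2, 4 lower by weighted limma voom) and a median of -0.30. How much blood the ears held when taken was not tested.

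Pigment genes fell in part. Of 15 melanocyte genes 8 fell and none rose, with a median of -0.84. Upstream windows are shown for 3 of them, because the word TCATGTG (its reverse complement is CACATGA), the M-box bound by the melanocyte regulator Mitf, recurs in this group.
Tyrp1 (chr4:80834063-80834212, plus strand): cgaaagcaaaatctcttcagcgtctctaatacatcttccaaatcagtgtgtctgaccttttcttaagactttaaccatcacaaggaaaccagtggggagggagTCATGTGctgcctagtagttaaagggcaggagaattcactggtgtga
Tyr (chr7:87493513-87493662, minus strand): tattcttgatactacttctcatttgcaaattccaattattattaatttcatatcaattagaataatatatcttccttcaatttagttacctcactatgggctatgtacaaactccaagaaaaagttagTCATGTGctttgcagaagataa
Slc24a5 (chr2:125067977-125068126, plus strand): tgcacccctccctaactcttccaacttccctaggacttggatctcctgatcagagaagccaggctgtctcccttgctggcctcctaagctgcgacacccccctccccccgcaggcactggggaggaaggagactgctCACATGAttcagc
Capitals mark the word on either strand in these 150 bases before the RefSeq start. In 250 bases it was found in 6 of the 10 list members with a window, which are all 6 of the called genes with a window, and in 3.26% of 27025 windows. A match is a run of letters, not a measured binding site.

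Tyrp1, an enzyme of eumelanin synthesis, fell from 16.4, 22.4 and 26.7 CPM at day 5 to 4.001, 5.55 and 11.5 CPM at 1 month (log2 fold change -1.701 ± 0.22, adjusted p = 2.09e-05). Tyr, the tyrosinase that starts pigment synthesis, fell from 3.61, 5.56 and 5.92 to 1.02, 1.47 and 3.25 CPM (-1.48 ± 0.26, adjusted p = 9.18e-04). Pmel, which forms the fibrils of the pigment granule, fell by 1.19 on the log2 scale (SE 0.23, adjusted p = 0.0025). The ion exchanger Slc24a5 changed by -1.196 ± 0.26 and the channel Trpm1 by -0.84 ± 0.16. In all 5 genes every 1 month library lay below every day 5 library, and replicates 1 and 5 were the highest of the 1 month libraries. The genes that define the lineage, Mitf and Sox10, were not called: Mitf went from 19.8 ± 1.93 to 16.6 ± 5.72 CPM (SD, n = 6, adjusted p = 0.55) and Sox10 from 10.7 ± 0.734 to 8.47 ± 2.79 CPM (adjusted p = 0.28). The number of pigment genes called stayed between 6 and 9 without single libraries and was 14 with weighted limma voom.

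**Figure D3:**
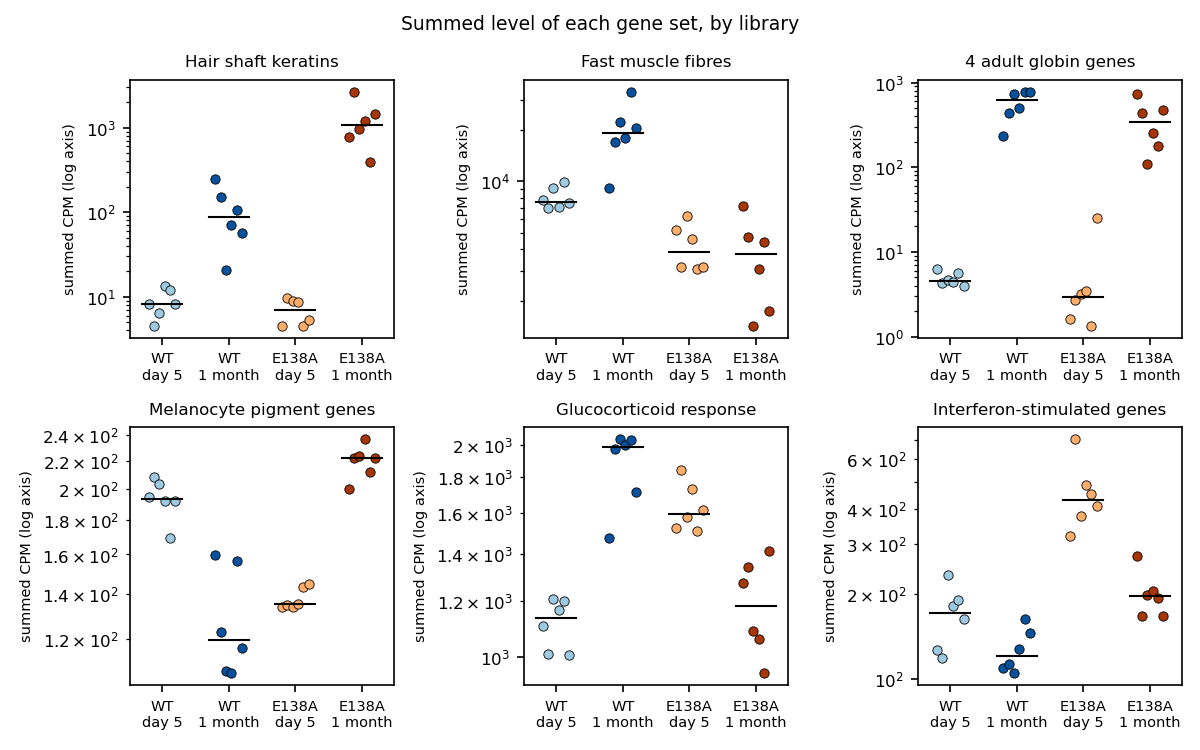
Summed CPM (y axis, log scale) of 6 gene sets in each library, for wild type and Card14 E138A at day 5 and 1 month, with a line at the median of the 6 libraries. At 1 month the wild-type libraries lie above day 5 for keratins of the shaft and inner root sheath (20.5–248 against 4.56–13.5 CPM) and globins. They lie below it for pigment genes.

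Matrix genes moved down in part. Of 30 genes of fibrillar collagens and their processing, 5 fell and none rose (median -0.37). Col1a1 and Col1a2, the chains of type I collagen, fell from 3653–5087 to 1715–2997 CPM and from 3859–5298 to 2147–3344 CPM, with log2 fold changes of -0.97 ± 0.27 and -0.85 ± 0.24 (adjusted p = 0.027 and 0.024). Col5a1, which nucleates type I fibrils, changed by -0.83 ± 0.23, the fibril-associated Col12a1 by -0.62 ± 0.17 and the elastic fibre protein Fbn2 by -0.99 ± 0.21. Although Col1a1, Col1a2 and Col5a1 had no overlap between the groups, their calls were lost without any 1 of 6 libraries, at adjusted p up to 0.065, 0.06 and 0.06. The count of falls was 1 without day 5 replicate 2 or 3, 2 without day 5 replicate 1 or without 1 month replicate 3, 4 or 6, and 3 without replicates 2 and 5, where the calls of Col5a1 and Col12a1 were lost. It was 10 with only the wild-type libraries fitted, 13 with a GC covariate and 19 with weighted limma voom.

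Cartilage genes were mixed, with 4 of 21 higher and 1 lower, beside 6.28% of all genes called higher and 2.81% called lower. Prg4, the lubricant proteoglycan, rose from 9.67–14.9 to 27.4–56.5 CPM without overlap (1.84 ± 0.24, adjusted p = 2.46e-05). The matrix proteins Chad, Ucma and Comp rose by 1.07 ± 0.27, 0.98 ± 0.30 and 0.65 ± 0.21, and the collagen chain Col9a1 changed by -0.74 ± 0.21. The Prg4 call held without each library in turn, and the others were lost without at least 1 of the libraries, at adjusted p up to 0.056, 0.12, 0.15 and 0.064. The number of rises was 2 without day 5 replicate 1, 2, 4, 5 or 6 or without 1 month replicate 2, 3 or 4, and 1 without 1 month replicate 5 or without replicates 2 and 5 together. It was 2 with a GC covariate or a replicate block and 7 with weighted limma voom.

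Of 22 genes of division and DNA replication, 5 fell and none rose (median -0.42). They were the cyclins Ccna2 (-0.91 ± 0.24) and Ccnb1 (-0.64 ± 0.17), the mitotic kinases Plk1 (-0.59 ± 0.17) and Aurkb (-0.44 ± 0.14), and Rrm2 (-0.51 ± 0.16), a subunit of ribonucleotide reductase. The groups overlapped in all 5. The count was 1 without 1 month replicate 2 or 5, 2 without day 5 replicate 1, 4, 5 or 6 or 1 month replicate 6, 3 without day 5 replicate 2 or 1 month replicate 3, and 0 without replicates 2 and 5 together. It was 2 with no filter, with a replicate block or with only the wild-type libraries fitted, 3 with library totals alone, 9 with a GC covariate and 13 with weighted limma voom. Imprinted growth genes had 1 rise and 2 falls among 16, beside 6.28% of all genes called higher and 2.81% called lower. The non-coding RNA H19 rose from 11.01–19.6 to 22.2–83.5 CPM (2.02 ± 0.35, adjusted p = 8.18e-04). Peg10 changed by -1.23 ± 0.24 (adjusted p = 0.0026) and the growth factor Igf2 by -0.70 ± 0.22 (adjusted p = 0.05). The Igf2 call was lost without any 1 of 10 libraries. The count of imprinted genes called lower was 1 under most other settings and 5 with weighted limma voom.

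Adipocyte genes rose in part, with 7 of 19 higher, none lower and a median of 0.60. Retn, which encodes resistin, rose from 8.504, 8.95 and 16.9 to 18.5, 26.7 and 46.4 CPM without overlap (1.54 ± 0.29, adjusted p = 0.002). The hormone gene Adipoq rose by 1.19 ± 0.26, the insulin-regulated glucose carrier Slc2a4, which muscle also uses, by 1.17 ± 0.25, and Thrsp, a regulator of fat synthesis, by 1.81 ± 0.40. The count was 6 to 11 without single libraries (11 without 1 month replicate 1), 11 with DESeq2 or weighted limma voom, and 2 without replicates 2 and 5, where the calls of Adipoq and Thrsp were lost. In the opposite direction, 6 of 20 genes of fatty acid and sterol synthesis fell and none rose (median -0.37). The sterol enzymes Hmgcs1 and Sqle changed by -1.02 ± 0.27 and -0.55 ± 0.14. The count of falls was 3 without day 5 replicate 2, 3 or 4, without 1 month replicate 3 or 5, or without replicates 2 and 5 together, where the calls of Hmgcs1 and Sqle were lost. It was 13 with a GC covariate and 15 with weighted limma voom.

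Sebaceous gland genes had 3 rises and 2 falls among 18, beside 6.28% of all genes called higher and 2.81% called lower. The desaturase Scd3 rose from 2.74–5.28 to 9.49–30.7 CPM without overlap (2.41 ± 0.50, adjusted p = 0.0038), the wax synthase Awat2 by 0.85 ± 0.20 and the defensin Defb6 by 0.68 ± 0.18. Elovl4, which elongates fatty acids, and Far2, which reduces them to alcohols, changed by -0.65 ± 0.20 and -0.75 ± 0.23; both calls were lost without most single libraries, at adjusted p up to 0.096 and 0.09. The Defb6 call was lost without day 5 replicate 6 or 1 month replicate 5 (adjusted p up to 0.069), and without replicates 2 and 5 together 1 of the 3 rises, that of Scd3, passed. Among 19 genes of xenobiotic metabolism 2 rose and 1 fell, beside 6.28% of all genes called higher and 2.81% called lower. Cyp2e1 rose from 6.19–14.9 to 31.7–111 CPM (2.73 ± 0.36, adjusted p = 3.45e-05) and the retinaldehyde dehydrogenase Aldh1a1 by 1.17 ± 0.25, both without overlap. Cyp1a1 changed by -1.004 ± 0.32 (adjusted p = 0.048), a call lost without any 1 of 10 libraries.

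Most glucocorticoid-responsive genes listed were higher at 1 month. Glucocorticoid hormones act through a nuclear receptor that raises transcription of a shared set of genes in most tissues. Of 14 such genes 10 rose and none fell, with a median of 0.70, and 6 had no overlap between the groups. Fkbp5, a chaperone of that receptor, went from 42.97, 53.7 and 62.3 CPM at day 5 to 99.4, 134 and 151 CPM at 1 month (log2 fold change 1.29 ± 0.14, adjusted p = 1.31e-06). Tsc22d3, which encodes the leucine zipper protein GILZ, went from 140.2, 195 and 220.5 to 291, 484 and 515 CPM (1.22 ± 0.23, adjusted p = 0.0016). The feedback inhibitor of EGF receptors Errfi1 rose by 0.81 ± 0.10, the kinase Pdk4, which curbs pyruvate oxidation, by 2.19 ± 0.41, and the transcription factor Zbtb16 by 1.27 ± 0.27. In these 5 genes all 6 libraries of 1 month, replicate 1 included, were above all of day 5. The count of rises was 7 to 10 without single libraries and 8 to 12 under the other settings.

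Of 23 immediate early genes 4 rose and none fell (median 0.15), beside 6.28% of all genes called higher. The nuclear receptor Nr4a1 rose from 13.4–23.1 to 24.3–72.2 CPM (1.33 ± 0.28, adjusted p = 0.004) without overlap, its relative Nr4a3 by 1.26 ± 0.28, the stress factor Atf3 by 1.52 ± 0.37 and the phosphatase Dusp1 by 0.69 ± 0.19. The count was 3 to 6 without single libraries and 2 without replicates 2 and 5, where the calls of Atf3 and Dusp1 were lost. The Dusp1 call was also lost without day 5 replicate 6 or 1 month replicate 4 (adjusted p up to 0.07). In the circadian clock list 1 of 19 genes rose, beside 6.28% of all genes called higher. It was Nfil3, a repressor of clock output, which went from 6.49–9.97 to 12.2–23.4 CPM (1.13 ± 0.24, adjusted p = 0.0045). The count of rises in this list was 2 with DESeq2, and 4 with weighted limma voom or with only the wild-type libraries fitted. The hour at which the ears were taken is not in the labels, and its part in these results was not tested.

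Some keratinocyte stress genes rose, unevenly between libraries. Of 22 genes that wounded or inflamed epidermis makes, 7 rose and none fell (median 0.998), with 4 rises under a replicate block. Krt6b, a keratin of activated keratinocytes and of the follicle's companion layer, was read at 0.617, 2.203 and 4.06 CPM at day 5 and at 127, 3.78, 21.1, 88.9, 5.62 and 13.4 CPM in 1 month replicates 1 to 6. It rose by 4.197 ± 0.87 (adjusted p = 0.0039), with replicates 1 and 4 the highest and replicate 2 inside the day 5 range. Krt16, its partner keratin, went from 10.1–23.6 CPM to 187, 16.6, 175, 76.9, 21.2 and 16.9 CPM (2.36 ± 0.57, adjusted p = 0.012), high in replicates 1, 3 and 4 and within the day 5 range in the other 3. Sprr2a3, 1 of a set of near-identical cornified envelope genes and so uncertain in its counts, rose by 2.78 ± 0.67. S100a8 and S100a9, the subunits of calprotectin, rose by 2.099 ± 0.38 and 2.07 ± 0.38 without overlap, from means of 1.91 ± 0.815 and 2.71 ± 0.638 to 8.21 ± 3.54 and 11.4 ± 6.34 CPM (SD, n = 6).

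Neutrophils also make S100a8 and S100a9. In a list of 10 neutrophil genes those 2 were the rises, and the summed list stood at 18.6–24.3 CPM at day 5 and 29.98–77.98 CPM at 1 month. Their part in the rise of these 2 genes was not tested. In the granular and cornified layers 1 of 26 genes rose, beside 6.28% of all genes called higher. That gene, the suprabasal keratin Krt77, went from 86.1, 105 and 130.0 to 308, 834 and 1164 CPM without overlap (2.98 ± 0.59, adjusted p = 0.0026). Replicate 5 was the lowest of the 1 month libraries for Krt77. The count of rises in this list was 2 with DESeq2, 3 with only the wild-type libraries fitted and 5 with weighted limma voom.

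Each immune cell list had 0 to 2 genes called by edgeR, beside 9.09% of all genes called. Among 14 genes of dendritic and Langerhans cells, the chemokine receptor Ccr7 rose by 1.302 ± 0.32 (adjusted p = 0.013) and the lectin Cd209a by 0.55 ± 0.17 (adjusted p = 0.039), a call lost without any 1 of 5 libraries. Among 13 T cell genes Foxp3, the regulator of regulatory T cells, rose from 0–0.327 to 0.274–1.02 CPM (1.67 ± 0.44, adjusted p = 0.017), a level of few reads; the call was lost without replicates 2 and 5. Of 18 genes of monocytes and macrophages, the secreted protein gene Retnla rose, from 3.699–7.58 to 10.7–31.4 CPM without overlap (1.73 ± 0.34, adjusted p = 0.0024). The other tools called more: DESeq2 called 4 dendritic, 3 T cell and 2 monocyte genes, all higher. Weighted limma voom called 7 dendritic and 6 T cell genes higher, and 4 monocyte genes higher and 3 lower. The lists for gamma delta T cells (11 genes tested), mast cells (11), cytotoxic lymphocytes (7) and B cells (4) had 0 genes called by edgeR, and 1, 3, 2 and 0 at an unadjusted p below 0.05. DESeq2 called 1 gene in these lists, a cytotoxic lymphocyte gene that was higher, and weighted limma voom called 2, 6, 2 and 0.

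Interferon-stimulated genes had some falls and no rise by edgeR. Interferons induce these antiviral genes through STAT and IRF factors, which bind repeats of GAAA, and upstream windows of 2 fallers are shown for that reason. Capitals mark GAAA repeated after any 2 bases, on either strand, in the 150 bases before the RefSeq start.
Ifit1 (chr19:34640739-34640888, plus strand): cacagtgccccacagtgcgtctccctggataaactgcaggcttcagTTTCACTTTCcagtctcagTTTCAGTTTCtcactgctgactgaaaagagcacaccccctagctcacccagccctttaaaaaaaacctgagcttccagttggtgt
Gbp3 (chr3:142559894-142560043, plus strand): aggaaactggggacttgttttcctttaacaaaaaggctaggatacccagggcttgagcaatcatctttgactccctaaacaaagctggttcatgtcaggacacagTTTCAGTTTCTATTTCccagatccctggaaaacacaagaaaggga
In 250 bases the word was found in 10 of 16 list members with a window and in 3.06% of 27025 windows. It was present in 2 of the 4 called genes with a window. Of 24 genes in the list 5 fell and none rose (median -0.61). Ifit1, which binds foreign RNA, fell from 2.16, 5.05 and 8.401 to 1.29, 2.24 and 2.44 CPM (-1.297 ± 0.28, adjusted p = 0.0049). Oasl2, of the oligoadenylate synthetase family, fell without overlap from 5.18–14.4 to 3.32–5.13 CPM (-1.07 ± 0.26, adjusted p = 0.012). Ifi44 changed by -2.08 ± 0.47, Rtp4 by -1.06 ± 0.29 and the guanylate-binding protein Gbp3 by -1.04 ± 0.33. The Rtp4 call was lost without day 5 or 1 month replicate 3 (adjusted p up to 0.088) and the Gbp3 call without any 1 of 9 libraries (up to 0.1). The count was 3 without day 5 replicate 3 or 1 month replicate 3, and 2 without replicates 2 and 5, where the calls of Ifi44, Oasl2 and Gbp3 were lost. It was 3 with a replicate block and 9 with weighted limma voom.

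Other protein-coding genes with large changes belonged to none of these groups. Defb8, a beta-defensin, rose from 0, 0.489 and 0.665 to 9.15, 11.8 and 34.1 CPM (5.55 ± 0.69, adjusted p = 1.92e-05), Mup22, of the urinary protein family with near-identical copies, by 5.61 ± 1.08, and the uncharacterised 9130204L05Rik by 6.27 ± 0.57, all without overlap. Rpl12, a protein of the large ribosomal subunit (chr2:32961559-32965345), went from 24.1, 26.7 and 29.98 to 361, 573 and 698 CPM (4.34 ± 0.22, adjusted p = 6.02e-12), far from the median of 0.42 over the ribosomal protein genes. Rpl12 has processed copies in the genome, so its counts are uncertain where reads could be shared.

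Among the falls, the oxytocin receptor Oxtr went from 11.1, 16.4 and 20.6 to 3.32, 4.38 and 7.04 CPM (-1.802 ± 0.24, adjusted p = 4.08e-05) and the glutamate receptor subunit Gria1 from 32.6, 36.1 and 48.6 to 7.94, 14.6 and 17.1 CPM (-1.48 ± 0.19, adjusted p = 2.75e-05). The relaxin receptor Rxfp1 changed by -2.05 ± 0.57, the transcription factor Sim2 by -1.22 ± 0.22, the sphingosine phosphate phosphatase Sgpp2 by -1.19 ± 0.28 and the splicing regulator Mbnl3 by -1.33 ± 0.42. The groups did not overlap in these genes except Sgpp2, but the calls of Rxfp1 and Mbnl3 were lost without 6 and 11 of the 12 libraries left out singly, at adjusted p up to 0.059 and 0.11. Without replicates 2 and 5 those 2 calls and that of Sgpp2 were lost. The largest fall, of Gm21887, from 4.23, 6.21 and 21.7 to 0, 0.0196 and 0.474 CPM (-6.13 ± 0.73, adjusted p = 9.14e-06), is that of a gene model at the end of the X chromosome (chrX:170009659-170019281).

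Outside protein-coding genes, processed pseudogenes stood out by size. Of 476 tested, 43 (9.03%) were higher and 63 (13.2%) lower, and 44 of them (9.24%) were called with a change of at least 2 on the log2 scale, beside 127 of 15075 protein-coding genes (0.842%). Gm10095 had no read at day 5 and 2262 at 1 month, a rise of at least 555-fold, counting 3 reads over the group as the floor. Rpl6l rose by 4.45 ± 0.65 and Gm9493 by 2.44 ± 0.43. Gm10193 changed by -5.16 ± 0.29, and Gm3788 had 868 reads at day 5 and 2 at 1 month, a ratio of 0.00170 (95% counting interval 0.000205 to 0.00615). Gm28439, an unprocessed pseudogene, had 24897 reads at day 5 and none at 1 month, at least 11280-fold lower. Of 10 miRNA genes tested 6 changed by at least 2, among them Gm26377 (no read at day 5, at least 1046-fold higher) and Mir6236 (-5.76 ± 0.66). Such on and off counts at loci that share sequence with other transcripts are uncertain, since reads may be split between near-identical copies.

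Most of these pseudogene changes were seen in the mutant libraries too: 39 of the 44 were called in the same direction between E138A ears at day 5 and 1 month, and 0 had a called difference between the genotypes. For protein-coding genes with a change of that size, 84 of 127 were called the same way in mutants and 37 differed. Rpl12 rose in the mutants too (log2 fold change 3.61, adjusted p = 1.79e-11), without a called difference (adjusted p = 0.1). The 4 globins rose by 5.47 to 6.55 there, again without a called difference. No batch is named in the labels, and a difference in libraries or sequencing between the times would be shared by both genotypes and cannot be told apart from time.

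Time changed other gene groups differently by genotype. In the mutants 3360 genes (19.4%) were called between the times, 1937 (11.2%) higher and 1423 (8.23%) lower. Of the 1572 wild-type calls, 452 were called in the same direction in mutants, 28.8% of the wild-type and 13.5% of the mutant calls, and 92 in the opposite direction. The difference of the changes was called for 1516 genes (8.77%), with the wild-type change the lower in 809 (4.68%) and the higher in 707 (4.09%). A difference in change can come from a difference in level at either time. The mutant libraries also varied in their correlation with GC content. It was -0.33 to 0.008 at day 5 and 0.43, 0.22, -0.32, -0.38, -0.35 and 0.54 in E138A 1 month replicates 1 to 6. The part of this spread in the differences was not tested.

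Pigment genes moved in opposite directions: 11 of 15 rose in the mutants (median 1.104) and 12 differed. Tyrp1 went from 3.73–6.35 to 10.9–19.2 CPM in E138A ears (difference of the log2 changes, wild type minus mutant, -3.24, adjusted p = 3.03e-07). Mutant ears at day 5 thus overlapped with wild-type ears at 1 month, and mutant ears at 1 month with wild-type ears at day 5. Of the 22 fast fibre genes 0 rose and 1 fell in mutants, and the difference itself was called for 8 fast and 8 of 12 slow fibre genes. The summed fast fibre genes stood at 3065–6292 CPM in mutants at day 5 and 1424–7143 CPM at 1 month. Glucocorticoid-responsive genes, of which 6 fell and none rose in mutants, differed in 9 of 14. Fkbp5 had a mutant change of -0.46 and a difference of 1.76 (adjusted p = 2.44e-06).

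Keratins of the shaft and inner root sheath rose in both genotypes. All 19 rose in the mutants, with a median of 7.52. The rise was the smaller in wild type in 8 keratins by the test of the difference. Their sum in E138A ears was 4.51–9.62 CPM at day 5 and 389–2665 CPM at 1 month. Collagen genes rose in 19 of 30 mutant tests and differed in 22. Interferon-stimulated genes fell in 19 of 24 in mutants and differed in 3, so that for most of them no difference in the change was called. Card14 fell in mutants (-1.69, adjusted p = 1.21e-06) and not by the test in wild type, a called difference of 1.52 (adjusted p = 8.27e-04).

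**Figure D4:**
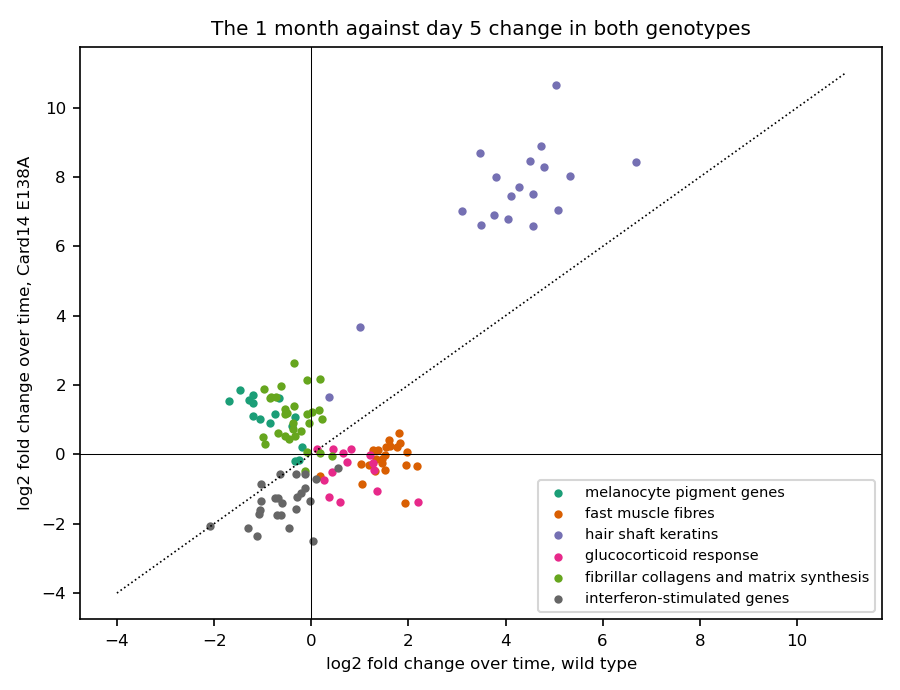
Log2 fold change between day 5 and 1 month in wild type (x axis) and in Card14 E138A ears (y axis) for the members of 6 gene lists, 1 point a gene, with a dotted line where both are equal. Pigment genes lie at the upper left (medians -0.84 and 1.104) and muscle genes along the right of the x axis. The list named hair shaft keratins, which includes those of the inner root sheath, lies above the line.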

How the data were processed

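PolyA RNA of whole ears was measured by RNA-seq in 24 libraries of 4 groups, with the 12 wild-type libraries as the subject. The values deposited by the authors are expected counts per Ensembl gene, with no scaling between samples applied. RSEM 1.3.0, STAR 2.5.2, DESeq2 1.14.1 and the build GRCm38 are named in the submitters' processing notes. The gene annotation and any use of strand in counting are not given in the sources used here. In all, 51912 genes in 24 columns were read, and the 6.71% of values that were not whole were rounded. Symbols, biotypes and coordinates came from GENCODE M21, which held 51719 of the identifiers.

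Counts were fitted in R 4.3.3 with edgeR 4.0.16: filterByExpr by group (17287 genes kept), TMM factors, and a robust quasi-likelihood fit of 1 coefficient per group over all 24 libraries. The contrasts were 1 month minus day 5 in wild type, the same in mutants, and their difference. Two-sided F tests were adjusted by Benjamini-Hochberg over all genes tested, and genes under 0.05 were called. Each standard error was taken as the absolute log2 fold change over the root of its F statistic. CPM values use TMM-scaled library sizes and are not corrected for gene length, so levels are compared between libraries and not between genes. Where a group had no read, folds are bounds that assume 3 reads over its libraries, and with 1 to 3 reads the ratio has an exact 95% counting interval, which covers counting error only.

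On simulated counts for the wild-type comparison with 17287 genes, the fit found 11 of the 67 genes given a 1.5-fold change. It found 43 of 67 at 2-fold and 60 of 66 at 4-fold, and called 7 unchanged genes. The simulation gave each gene the same spread in all groups and drew genes independently. The wider spread of the real 1 month libraries (median SD 0.355 against 0.153 at day 5) was not in it. These rates may therefore not hold for the real comparison. The members, the 51 gene lists and the lists described were chosen with earlier results of these data known. The genes named are Card14, then 12 protein-coding genes each way with the largest change among those called with a mean of at least 5 CPM in either wild-type group, 4 each way of other biotypes, and up to 5 members of a described list with the smallest adjusted p. Alternatives were DESeq2 1.42.0, voom of limma 3.58.1 with sample quality weights (weighted limma voom), other scalings and filters, a GC covariate, a replicate block and leaving out libraries. Libraries of a group differed beyond sampling noise, with at least 4.86 as chi-square per degree of freedom. Replicate numbers did not pair the samples: deviations of same-numbered libraries correlated at -0.08 to 0.07. Upstream sequences came from RefSeq (GRCm38.p6), 1 window a symbol, chosen nearest to the GENCODE start.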

Additional observations from a re-analysis of the deposited data

Results flagged for a closer look

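In the following groups of 6 wild-type libraries, 1 library stood apart from the other 5 by a gap above a fixed limit. Values are CPM. Chance passes that limit in about 1 of 20 groups. It was applied to 118 named genes and to each list described, at both times, so some flags are expected by chance. The rate may not hold for few reads, such as 10 for Hbb-bt at day 5 or 2 for Gm3788 at 1 month. Day 5 replicate 4 read Hbb-bt at 0 CPM. Day 5 replicate 6 read Gm21887 at 21.68 and Foxp3 at 0 CPM. Wild-type 1 month replicate 1 read Rxfp1 at 2.933, Krtap8-1 at 6.765, Dsg4 at 2.816, Col12a1 at 99.92, Sqle at 157.3, Elovl4 at 1392 and the summed hair shaft and inner root sheath proteins at 509.8 CPM. Wild-type 1 month replicate 5 read Gm3788 at 0.08847, Mir6236 at 1.681, Aldh1a1 at 130.3, Retnla at 31.45, the summed imprinted growth genes at 1726 and the summed monocytes and macrophages at 1364 CPM. Day 5 replicate 1 read Krtap7-1 at 0.3471 CPM. Day 5 replicate 5 read Mybpc2 at 60.48 CPM. Day 5 replicate 3 read Retn at 16.92, Thrsp at 12.75, Adipoq at 77.12 and the summed adipocytes at 2461 CPM. Wild-type 1 month replicate 6 read Zbtb16 at 98.53 CPM. Both values of 0 were the lowest of their groups, and every other value listed was the highest.

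The time change differed between the genotypes for these named genes by edgeR's test of the difference, adjusted over all genes; values are the wild-type minus the mutant change in log2 units. The wild-type change was the higher in 26 genes: Gm26377 (9.41), 9130204L05Rik (9.06), Krt24 (8.14), Retnla (4.84), Krt6b (3.599), Pdk4 (3.57), Myl2 (2.85), Myl3 (2.74), Tnnc1 (2.65), Krt77 (2.54), Mybpc2 (2.501), S100a9 (2.22), S100a8 (2.06), Prg4 (1.89), Atf3 (1.84), Fkbp5 (1.76), Myoz2 (1.71), Card14 (1.52), Zbtb16 (1.51), Aldh1a1 (1.36), Tsc22d3 (1.25), Nfil3 (1.23), Chad (1.22), Dusp1 (1.09), Wif1 (1.04) and Errfi1 (0.66). It was the lower in 18 genes: Krt71 (-4.16), Krt25 (-3.95), Krt28 (-3.92), Krt27 (-3.42), Tyr (-3.34), Tyrp1 (-3.24), Krt73 (-3.12), Col1a1 (-2.86), Pmel (-2.68), Col12a1 (-2.58), Col5a1 (-2.496), Col1a2 (-2.49), Slc24a5 (-2.300), Trpm1 (-1.75), Fbn2 (-1.48), Wnt5a (-1.196), Sim2 (-1.13) and Plk1 (-0.81).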

How the results depend on the processing

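The number of genes called in wild type was 1572. It was 2458 with DESeq2 and 8227 with limma voom with sample quality weights (weighted limma voom), 1019 with a replicate block, 670 with a minimum change of 1 on the log2 scale, and 674 without 1 month replicates 2 and 5, an alternative added after the data were seen. It ranged from 937 (without 1 month replicate 5) to 3026 (without 1 month replicate 1) when single libraries were left out, with 1025 and 1028 without day 5 replicates 2 and 4. The number called in mutants was 3360; it was 5886 with weighted limma voom, 2109 with only the libraries compared and 1479 with the minimum change, and 2904 to 3728 without single libraries. The number with a called difference between genotypes was 1516; it was 8217 with weighted limma voom and 2882 with a GC covariate, and 1191 to 1731 without single libraries; a fit to only the libraries compared cannot give this difference. Weighted limma voom changes the tool and the weights at once. The cause of these shifts was not tested, other than the stricter limit of the minimum change. Of 117 named genes called, 74 passed under every setting in which they were tested and none changed direction. The calls of 31 were lost without at least 1 single library, and those of 39 without replicates 2 and 5. The replicate block, tried although the numbers share no stated source, left 101 of 118 named genes on the same side of the threshold; as a hint from the data, 0 of the 1 month libraries correlated best with the day 5 library of their own number. Genes with few reads and the wider spread of the 1 month libraries limit what was called, so a gene not called may still differ.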
